A study of Arabidopsis thaliana with 44 samples.

Results

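Low light during growth of the mother plant was compared with standard light in the stored RNA of the dry seed of one Arabidopsis line, the near isogenic line NIL DOG6. The comparison took the 3 arrays titled as low light (LL) and the 3 titled as standard light (SL) in that line, 6 of the 44 arrays of the series, and all 27827 probe sets on them. Every array held total RNA of freshly harvested dry seed from plants grown in randomized blocks, with each replicate a bulk of 4 plants, and the replicates are called biological in the labels. The LL group was NIL DOG6 seed from plants under low light, and the SL group, which the study names as its control, was NIL DOG6 seed from plants under standard light. The labels give no light intensity, and the DOG6 locus stands here on 1 line only, so a response of NIL DOG6 cannot be told apart from a response of anything else that line carries. For comparison, the text also uses LL and SL seed of NIL DOG1 and of NIL DOG3 (3 arrays per group), and NIL DOG6 seed of plants grown at 15 °C or under low nitrate (N0), with 20 °C as the stated control of both (3 arrays per group). None of these groups is a wild type, and all of them carry an introgression at a DELAY OF GERMINATION locus.

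Near isogenic lines carry a small segment of one natural accession in the background of another, and the DELAY OF GERMINATION loci were named because such segments alter how deeply fresh seed is dormant. Seeds ripen on the mother plant and take sugar, nitrogen and sulphur from it, and the RNA found in a dry seed is the store laid down during that ripening. Light acts on plants through phytochromes, cryptochromes and phototropins, and through the sugar that photosynthesis supplies. Dormancy in Arabidopsis is set by abscisic acid, by gibberellin and its DELLA repressors, and by the DOG1 protein.

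The arrays read as ripe seed. The storage globulin gene CRA1 averaged a log2 value of 12.30 in LL seed and 12.29 in SL seed, the globulin gene CRU2 12.51 and 12.55, the oil body gene OLEO1 11.86 and 11.96, and the late embryogenesis gene EM1 11.94 and 11.91. Correlations over all probe sets were 0.9893 to 0.9914 among the LL arrays, 0.9896 to 0.9918 among the SL arrays and 0.9822 to 0.9909 between them. Array medians ranged from 4.234 to 4.301 on the log2 scale, against 4.215 to 4.386 over all 44 arrays.

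SL replicate 2 had the highest signal of pollen genes of the 6 arrays, followed by SL replicate 1. The results below are therefore given with and without SL replicate 2. A pollen index, the mean over 58 pollen marker genes of the log2 value centred over all 44 arrays, was -0.167, -0.157 and -0.414 on the LL arrays and 0.404, 0.598 and 0.159 on the SL arrays. All 3 SL arrays thus lay above all 3 LL arrays. The SL replicates numbered 2 of the other lines were higher still, at 0.858 in NIL DOG1 and 0.869 in NIL DOG3. Markers of the tapetum and pollen coat, 32 genes, differed by 0.0977 in the same kind of index (LL minus SL, exact two-sided permutation test, p = 0.3).

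**Figure D1:**
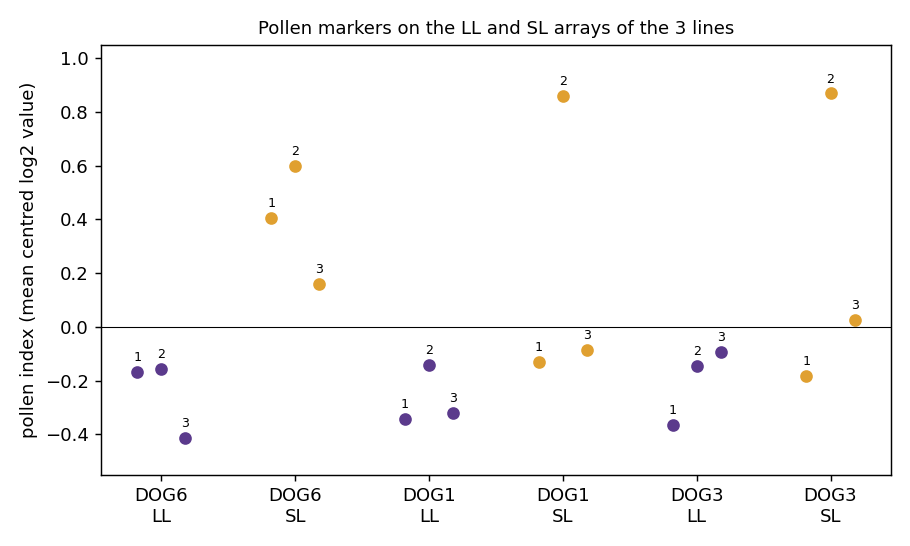
Pollen index (mean centred log2 value of 58 marker genes, vertical axis) on each LL and SL array of the 3 lines, with the replicate number at each point. In NIL DOG6 the LL arrays lie between -0.414 and -0.157 and the SL arrays between 0.159 and 0.598, and in each line the SL array numbered 2 is the highest.

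In the limma fit over all 44 arrays, 695 probe sets passed an adjusted p of 0.05 between LL and SL seed of NIL DOG6. Of these, 334 were higher in LL seed (1.2% of all tested) and 361 were lower (1.3%). The changes were moderate: the median absolute log2 difference of the 695 was 0.62, the range ran from -2.82 to 2.6, and 133 probe sets changed by 2-fold or more, 58 of them higher and 75 lower. The 3 LL arrays and the 3 SL arrays did not overlap for 672 of the 695, while over all probe sets 9.94% had every LL array above every SL array and 9.36% had every LL array below. At an unadjusted p under 0.05 there were 4495 probe sets. Of the called probe sets, 397 have no gene symbol in the annotation and are given by locus only.

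The number of calls rested strongly on which arrays entered the fit and on single arrays. Fitted on the 6 LL and SL arrays of NIL DOG6 alone, limma called 0 probe sets, with 3480 at an unadjusted p under 0.05, and fitted on the 18 LL and SL arrays of the 3 lines it called 170. Without SL replicate 2, 96 probe sets were called higher (0.345%) and 94 lower (0.338%), and 182 of these 190 were called in the same direction with all arrays. All 695 kept their sign without that array. Without LL replicate 1, 100 were called, all of them among the 695. Leaving out any other of the 6 arrays gave 496 to 679 calls. With the pollen index as a covariate, 278 were called, 247 of them shared with the 695. A core of 74 probe sets, 46 higher and 28 lower in LL seed, was called whichever of the 6 arrays was left out. Each of those fits still took its spread from all 15 groups of the series, and on the 6 arrays alone none of the 74 was called. With the pollen covariate, 72 of these 74 were also called. Below, where leaving out 1 array ended a gene's call, those arrays are written LL1 to LL3 and SL1 to SL3, with the highest adjusted p that any of them gave.

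The 12 largest rises called with and without SL replicate 2 all belonged to the core of 74, and MSL9, AGP31, DWF1 and EXPA15 were among them. MSL9, a mechanosensitive ion channel of the plasma membrane, had log2 values of 4.30, 5.12 and 4.75 in LL seed, against 3.20, 2.94 and 2.97 in SL seed. It rose 3.23-fold (log2 difference 1.69 ± 0.16, SE; adjusted p = 7.553e-08), the smallest p of the comparison named here, and the arrays of the groups were far apart. AGP31, an arabinogalactan protein of the cell wall, had values of 5.01, 4.28 and 5.01 in LL seed, against 2.97, 3.13 and 3.17 in SL seed, a log2 difference of 1.68 ± 0.24 (adjusted p = 0.0001868). The expansin EXPA15, which loosens walls, had values of 4.89, 5.31 and 5.51 in LL seed, against 3.71, 3.78 and 3.67 in SL seed, a log2 difference of 1.51 ± 0.20 (adjusted p = 6.312e-05). All 3 genes were dim in SL seed, below the median of all values of 4.28, and their LL means lay above it.

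DWF1, a sterol reductase needed for brassinosteroid synthesis, behaved alike: its values were 4.74, 4.28 and 4.92 in LL seed, against 3.20, 2.92 and 3.06 in SL seed, a 3.01-fold rise (log2 difference 1.59 ± 0.22, adjusted p = 7.255e-05). The β-tubulin gene TUB3 had values of 6.92, 7.03 and 7.14 in LL seed, against 6.18, 5.36 and 5.33 in SL seed (1.4 ± 0.25, adjusted p = 0.002302). The LL arrays agreed closely here, and SL replicate 1 was the highest of its group. PNP-A, a secreted natriuretic-like peptide that acts on water balance, had values of 6.74, 5.93 and 6.27 in LL seed, against 4.87, 4.36 and 5.09 in SL seed (1.54 ± 0.28, adjusted p = 0.002178). The cell wall-plasma membrane linker gene CWLP and the long noncoding RNA AT3G22121, which overlap in the annotation, rose together, by 0.92 ± 0.17 and 1.43 ± 0.23 on the log2 scale (adjusted p = 0.002498 and 0.0005182). Their signals cannot be told apart without knowing where the probes lie, and CWLP was picked for this reason after its values were seen.

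The rest of the 12 rises were PDF1.4 and loci without a symbol. PDF1.4, a plant defensin, had values of 7.92, 7.37 and 7.72 in LL seed, against 6.38, 6.21 and 6.28 in SL seed (1.38 ± 0.25, adjusted p = 0.0027). AT5G20950 differed by 1.6 ± 0.25, AT5G41761 by 1.45 ± 0.29, AT3G45310 by 1.44 ± 0.27 and AT5G33300 by 1.42 ± 0.25, with adjusted p-values of 0.0004534 to 0.005071. None of the 12 genes had an LL array at or below an SL array. Without SL replicate 2 their log2 differences were 1.23 to 1.7.

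**Figure D2:**
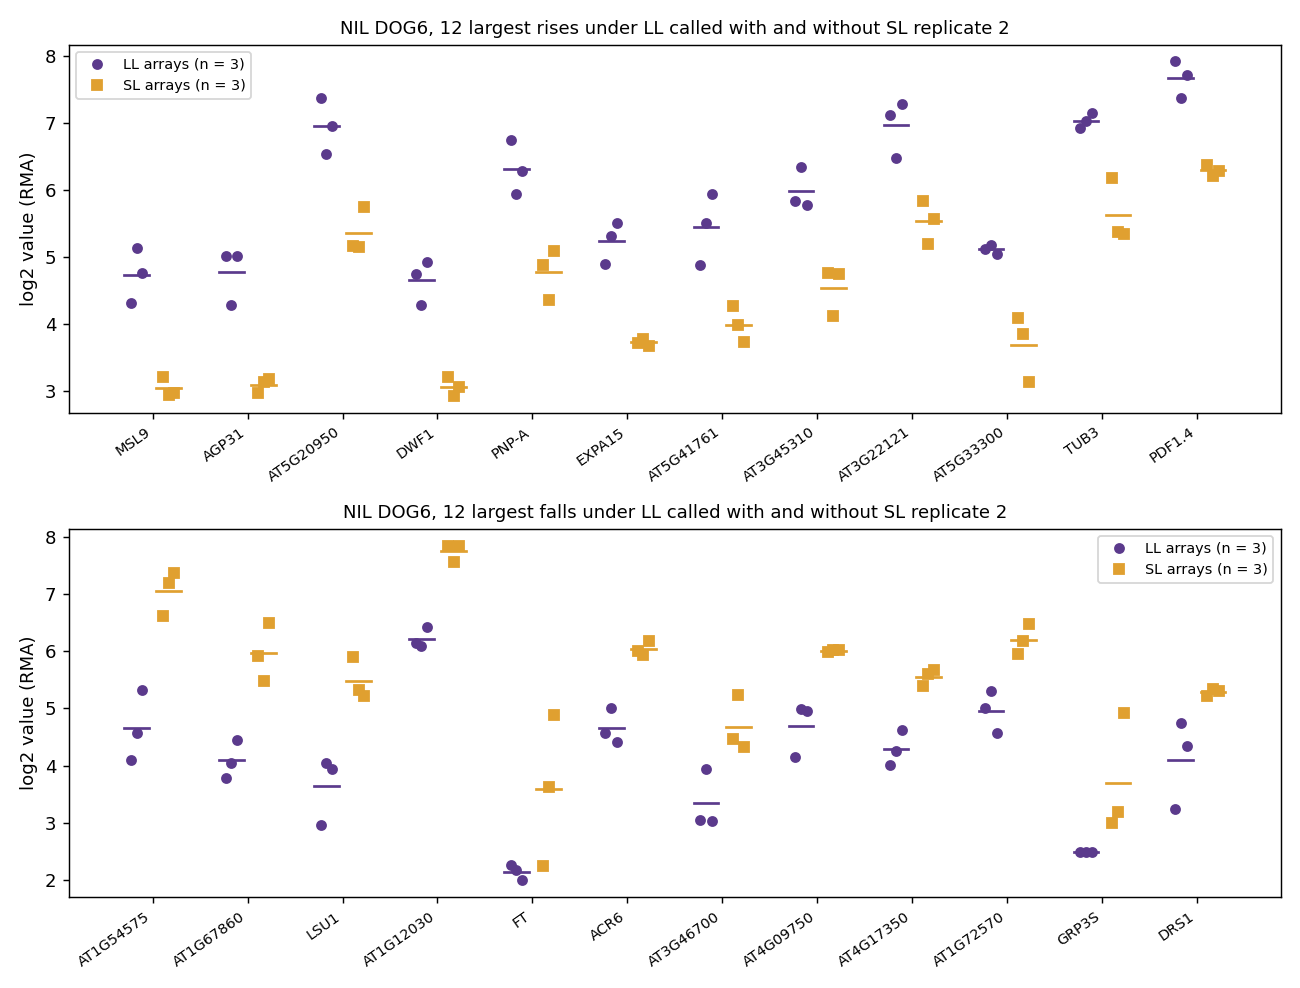
Log2 RMA values of the 12 largest rises (upper panel) and the 12 largest falls (lower panel) among probe sets called both with and without SL replicate 2 in NIL DOG6. Each point is an array, 3 LL and 3 SL per gene, and each line is the mean of its group; in the upper panel no LL array overlaps an SL array, and in the lower panel FT is the gene whose groups overlap.

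Further genes of the core of 74, picked here by their known roles after the values were seen, rose by 0.89 to 1.31 on the log2 scale. G-TMT, the methyltransferase that makes α-tocopherol (vitamin E), had values of 5.01, 5.26 and 5.17 in LL seed, against 4.05, 3.66 and 4.36 in SL seed (log2 difference 1.12 ± 0.19, adjusted p = 0.00129). BGAL10, a β-galactosidase that trims wall xyloglucan, differed by 1.31 ± 0.19 (adjusted p = 0.0001868), and PDF1, an epidermal wall protein, by 1.12 ± 0.22 (adjusted p = 0.004731). HLS1, which shapes the apical hook of the seedling, had values of 6.41, 6.14 and 6.39 in LL seed, against 5.45, 5.68 and 5.13 in SL seed (0.89 ± 0.16, adjusted p = 0.002711). DI21, a drought-induced gene, stood at 9.53, 9.53 and 9.63 in LL seed, against 8.98, 8.49 and 8.45 in SL seed (0.92 ± 0.13, adjusted p = 6.678e-05).

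Among the falls called with and without SL replicate 2, the largest was AT1G54575, a protein-coding locus with no symbol. Its log2 values were 4.09, 4.57 and 5.32 in LL seed, against 6.61, 7.2 and 7.38 in SL seed. It was 5.29-fold lower in LL seed (-2.40 ± 0.30, adjusted p = 3.341e-05), and it was also the one probe set whose response differed between lines, as described further on. AT1G12030 had values of 6.15, 6.09 and 6.42 in LL seed, against 7.84, 7.58 and 7.86 in SL seed (-1.54 ± 0.29, adjusted p = 0.002789). AT3G46700, AT4G09750, AT4G17350 and AT1G72570, also without symbols, fell by 1.34, 1.31, 1.27 and 1.24 on the log2 scale. All 6 loci were called whichever array was left out.

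LSU1, ACR6, AMT1;1 and AAP4, genes of nutrient response, transport or amino acid binding, fell in LL seed. LSU1, a small protein gene that responds to low sulphur, had log2 values of 2.96, 4.04 and 3.93 in LL seed, against 5.90, 5.33 and 5.23 in SL seed, a difference of -1.84 ± 0.36 (adjusted p = 0.004731). Without LL replicate 1, the lowest array, the difference was -1.5 and the adjusted p 0.07726, and with the pollen index as covariate LSU1 differed by -1.54 (adjusted p = 0.05387). ACR6, a protein with ACT domains of the kind that bind amino acids, had values of 4.57, 5.01 and 4.41 in LL seed, against 6.01, 5.94 and 6.18 in SL seed (-1.38 ± 0.18, adjusted p = 6.312e-05). The ammonium transporter gene AMT1;1 had values of 8.03, 8.24 and 8.08 in LL seed, against 9.16, 9.36 and 8.99 in SL seed (-1.05 ± 0.14, adjusted p = 7.255e-05). AMT1;1 was chosen after its values were seen, and the noncoding RNA AT4G13505, which overlaps it, fell by 1.00 with it. The amino acid permease AAP4, chosen likewise, stood at 2.83, 2.66 and 2.75 in LL seed, against 4.31, 3.25 and 3.95 in SL seed (-1.09 ± 0.22, adjusted p = 0.005522), dim in both groups. In the other growth conditions of NIL DOG6, AAP4 averaged 3.41 at 15 °C, 2.94 under low nitrate and 2.80 at 20 °C. ACR6, AMT1;1, AT4G13505 and AAP4 were in the core of 74.

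These falls did not extend over the pathways as lists. Of 21 genes of the sulphur limitation list, 1 was called lower (LSU1) and 1 higher, the sulphate transporter AST56 (0.53 ± 0.14, adjusted p = 0.03931), and the median log2 difference was -0.02, against 0.02 over all probe sets. Each of these calls was 4.76% of the list, against 1.2% higher and 1.3% lower of all probe sets. AST56 lost its call whichever array was left out (up to 0.1453). The median of the sulphur list moved to -0.17 when SL replicate 2 was left out. Of 40 genes of nitrogen assimilation, none was called in either direction by limma (median -0.10), with 1 higher and 4 lower at an unadjusted p under 0.05. AMT1;1 and AAP4 were not on that list of nitrogen assimilation as written.

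FT, the mobile flowering signal, was called lower in LL seed through 2 SL arrays. Its log2 values were 2.26, 2.16 and 1.99 in LL seed, against 2.24, 3.63 and 4.88 in SL seed (-1.45 ± 0.29, adjusted p = 0.006259), so SL replicate 1 lay among the LL arrays. In the other growth conditions of NIL DOG6 its mean was 2.11 at 15 °C, 2.07 under low nitrate and 2.07 at 20 °C. The fall was -0.80 without SL replicate 3 and -2.12 without SL replicate 1. The SE of the fit pools the spread of all 15 groups, while the SD of FT was 1.32 over the SL arrays and 0.14 over the LL arrays. FT was in the core of 74 on that pooled SE, which does not measure the spread of its SL arrays. GRP3S, a glycine-rich wall protein gene, had its highest value in SL replicate 3 but no overlap between the groups, with 2.49, 2.49 and 2.48 in LL seed, against 2.99, 3.19 and 4.93 in SL seed (-1.21 ± 0.27, adjusted p = 0.01068). Its call was lost without SL3 (-0.6, adjusted p = 0.07578) or LL1 (adjusted p = 0.06662). The SD of GRP3S was 1.07 over the SL arrays and 0.007 over the LL arrays, so its SE is pooled likewise. AT1G67860 (-1.87 ± 0.42, adjusted p = 0.01333) and DRS1 (-1.18 ± 0.24, adjusted p = 0.005071) lost their calls without LL1, with adjusted p-values of 0.09927 and 0.09833, and AT1G67860 also without SL3. The mean of AT1G67860 was 5.96 in SL seed and 4.09 in LL seed. Elsewhere in this line it was 3.98 at 15 °C, 3.89 under low nitrate and 4.05 at 20 °C. With the pollen index as covariate AT1G67860 differed by -1.03 (adjusted p = 0.2053). FT, GRP3S and DRS1 differed by -1.42, -1.30 and -1.22 in that fit (adjusted p = 0.03144, 0.0293 and 0.02129).

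The list of photoreceptors and light signalling, 38 genes, had 4 members called lower in LL seed and none higher by limma, against the 1.3% and 1.2% over all probe sets. At an unadjusted p under 0.05 it had 6 lower and 5 higher. With SL replicate 2 left out, 3 were called lower. ELIP1, an early light-induced protein that protects the thylakoid from excess light, stood at 7.40, 7.83 and 6.74 in LL seed, against 8.66, 8.30 and 8.41 in SL seed (-1.14 ± 0.21, adjusted p = 0.002557). SPA4, which works with COP1 to repress light responses, stood at 6.05, 6.15 and 6.24 in LL seed, against 6.62, 6.73 and 6.81 in SL seed (-0.57 ± 0.10, adjusted p = 0.002178). Both were called in all 6 fits without 1 array, and the arrays of the groups did not overlap. The blue-light receptor gene PHOT1 differed by -0.31 ± 0.08 (adjusted p = 0.02821) and the phytochrome-interacting factor PIF7 by -0.63 ± 0.16 (adjusted p = 0.02603). PHOT1 was lost without LL1, LL2, SL1 or SL3 (up to 0.1816), and PIF7 without LL1, SL2 or SL3 (up to 0.2936). The phytochrome genes and HY5 did not pass: PHYA differed by 0.32 ± 0.11 (adjusted p = 0.1061), PHYB by 0.08 ± 0.10 (adjusted p = 0.7696), and HY5, the transcription factor that drives light responses, by 0.28 ± 0.11 (adjusted p = 0.1792). Of 40 nuclear photosynthesis genes, 1 was called higher, the Rubisco small subunit gene RBCS1A (0.63 ± 0.17, adjusted p = 0.03594), with 7.76, 7.57 and 8.44 in LL seed, against 7.40, 7.19 and 7.27 in SL seed. It was lost without any array but LL2 (up to 0.2304).

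In the clock list, 23 genes, 3 were called higher and none lower by limma, against 1.2% and 1.3% of all probe sets. At an unadjusted p under 0.05 there were 6 higher and 6 lower, against 2132 and 2363 of all 27827 probe sets. PRR5, an evening repressor, stood at 5.56, 5.31 and 5.25 in LL seed, against 4.72, 4.61 and 4.19 in SL seed (0.87 ± 0.19, adjusted p = 0.01151). RVE1, which links the clock to auxin and to seed dormancy, stood at 6.58, 6.29 and 6.43 in LL seed, against 5.64, 5.87 and 5.73 in SL seed (0.69 ± 0.13, adjusted p = 0.004691). The third was AT5G06980 (0.44 ± 0.11, adjusted p = 0.02225). PRR5 was lost without LL1 or SL3 (up to 0.1012), RVE1 without LL1 (0.06122), and AT5G06980 without LL1, LL2, SL2 or SL3 (up to 0.1912). The morning genes LHY (0.48 ± 0.18, adjusted p = 0.1658) and CCA1 (0.04 ± 0.21, adjusted p = 0.9529) and the evening gene TOC1 (0.09 ± 0.09, adjusted p = 0.6603) did not pass.

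Among genes of dormancy and germination, 2 regulators rose and the DOG1 gene did not pass. RGL2, the DELLA protein that holds back germination, stood at 6.98, 6.87 and 6.64 in LL seed, against 6.01, 5.91 and 5.78 in SL seed (0.93 ± 0.15, adjusted p = 0.0009063). BME3, a GATA factor that promotes germination, stood at 5.02, 5.01 and 5.31 in LL seed, against 4.01, 4.05 and 4.31 in SL seed (0.99 ± 0.20, adjusted p = 0.00588). Both were in the core of 74, with the groups apart by more than the spread within them. The DOG1 gene stood at 6.48, 6.19 and 6.69 in LL seed, against 6.09, 6.12 and 6.51 in SL seed (0.22 ± 0.17, adjusted p = 0.5883), and the groups overlapped. NAC060, a transcription factor known for its effect on seed sensitivity to sugar and abscisic acid, stood at 8.79, 9.0 and 8.96 in LL seed, against 9.15, 9.02 and 8.82 in SL seed (-0.08 ± 0.10, adjusted p = 0.7704).

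As lists, 5.71% of the gibberellin genes were called higher and 5.26% of the genes of abscisic acid synthesis and breakdown lower. For dormancy and maturation regulators the share was 2.56% each way, and for abscisic acid perception and signalling 2.22% higher. Over all probe sets 1.2% were higher and 1.3% lower. Of 39 dormancy and maturation regulators, 1 was higher (BME3) and 1 lower (FT), with a median of 0.06. Of 35 gibberellin genes, 2 were higher: RGL2 and the biosynthesis gene GA20OX1 (0.73 ± 0.20, adjusted p = 0.03616), the second of which was lost without LL1, LL3, SL1 or SL2 (up to 0.2372). Of 19 genes of abscisic acid synthesis and breakdown, CYP707A2, the abscisic acid hydroxylase of ripening and imbibed seed, was lower, with 6.70, 6.83 and 6.72 in LL seed, against 7.51, 7.26 and 7.25 in SL seed (-0.59 ± 0.15, adjusted p = 0.02539). The arrays did not overlap, but the call was lost without LL1, LL3, SL1 or SL2 (up to 0.1386). Of 45 genes of abscisic acid perception and signalling, 1 was higher, the protein kinase CIPK9 (0.90 ± 0.18, adjusted p = 0.007026), which was lost without SL2 (0.08642). No member of the ethylene list (28 genes), the flavonoid and proanthocyanidin list (37 genes) or the cold response list (24 genes) was called by limma, and the members at an unadjusted p under 0.05 numbered 3 higher and 2 lower, 2 higher and 4 lower, and 1 higher and 1 lower.

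Of 43 genes of the defence and salicylate list, 5 were higher and 2 lower in LL seed, against 1.2% and 1.3% of all probe sets. Without SL2 the counts were 2 and 0, against 0.345% and 0.338%, with 8 members at an unadjusted p under 0.05, and the 2 were PDF1.4 and the defensin-like LCR69. LCR69 stood at 9.14, 8.90 and 8.84 in LL seed, against 8.11, 7.79 and 8.03 in SL seed (0.98 ± 0.18, adjusted p = 0.002474), and it was called whichever array was left out. The other 3 higher members were NAC042 (1.67 ± 0.39, adjusted p = 0.01602), the camalexin synthesis enzyme PAD3 (1.32 ± 0.36, adjusted p = 0.03883) and the transcription factor WRKY33, which acts upstream of it (0.78 ± 0.19, adjusted p = 0.01955). NAC042 was lost without LL1, SL2 or SL3 (up to 0.1028), and PAD3 and WRKY33 without LL1, LL3, SL1 or SL2 (up to 0.3822 and 0.1487). The lower members were the chitinase HCHIB, with 2.1, 2.11 and 2.03 in LL seed, against 3.43, 4.92 and 2.68 in SL seed (-1.59 ± 0.34, adjusted p = 0.009734), and EDS16, the salicylate synthesis enzyme (-0.64 ± 0.14, adjusted p = 0.01177). Both were lost without LL1 or SL2 (up to 0.1333 and 0.1106), and the HCHIB difference was -0.97 without SL2. The SD of HCHIB was 1.14 over the SL arrays and 0.04 over the LL arrays, while its SE pools all 15 groups. In the other growth conditions of NIL DOG6 the mean of HCHIB was 2.17 at 15 °C, 2.27 under low nitrate and 1.93 at 20 °C. With the pollen index as covariate HCHIB differed by -1.11 (adjusted p = 0.13) and EDS16 by -0.55 (adjusted p = 0.09865). PAD3 stood at 5.74, 3.67 and 4.57 in LL seed, against 3.28, 2.78 and 3.95 in SL seed, so the groups overlapped. Without LL1 it differed by 0.78. DMR6, an oxygenase that hydroxylates salicylic acid and was chosen after its values were seen, stood at 7.48, 7.80 and 8.09 in LL seed, against 8.61, 8.53 and 8.48 in SL seed (-0.75 ± 0.12, adjusted p = 0.0004534), and was in the core of 74.

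Of 40 genes of oxidative stress and glutathione transferases, 4 were higher and none lower by limma, against 1.2% and 1.3% of all probe sets. At an unadjusted p under 0.05 there were 7 higher and 5 lower, 12 of 40 where 16.2% of all probe sets had such a p. Without SL2 none was called, with 12 at an unadjusted p under 0.05. The glutathione transferase GSTF7 was bright, with 11.01, 10.37 and 10.63 in LL seed, against 9.72, 8.44 and 9.20 in SL seed (1.55 ± 0.44, adjusted p = 0.04982), and it kept its call only without SL1. GSTU11 differed by 1.37 ± 0.33, the superoxide dismutase CSD1 by 0.54 ± 0.14 and GSTF9 by 0.44 ± 0.11, with adjusted p-values of 0.02074, 0.02814 and 0.02112. Each of the 4 was lost without LL1 or SL2, with adjusted p-values of up to 0.2663 for GSTF7, 0.1618 for GSTU11, 0.2956 for CSD1 and 0.2694 for GSTF9. GSTU11 was lost also without LL3, CSD1 without SL1, and GSTF9 without SL1 or SL3. The near-identical gene GSTF6 differed by 0.60 (adjusted p = 0.14) and did not pass. In the glucosinolate list, 33 genes, the regulator MYB51 (1.26 ± 0.34, adjusted p = 0.04009) and the sulphotransferase SOT16 (0.75 ± 0.20, adjusted p = 0.03331) were higher. MYB51 was lost without LL1, SL1 or SL2 (up to 0.3025), and SOT16 without any array but LL2 (up to 0.2528). The median of the glucosinolate list was 0.17, the highest of the 27 lists, and it was 0.14 without SL2.

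The largest rise of the whole comparison was AT5G39110, a locus of the germin-like list, whose products are secreted wall proteins of the cupin fold. Its log2 values were 9.51, 8.01 and 8.39 in LL seed, against 6.72, 5.25 and 6.13 in SL seed, a 6.07-fold rise (2.6 ± 0.56, adjusted p = 0.009105). Every LL array lay above every SL array, but the spread within both groups was wide. Without SL replicate 2 the difference was 2.21 (adjusted p = 0.08641), and without LL replicate 1 it was 2.17 (adjusted p = 0.1076). GLP6, a germin-like protein, stood at 8.52, 8.47 and 8.74 in LL seed, against 7.32, 6.73 and 6.67 in SL seed (1.67 ± 0.41, adjusted p = 0.02209), lost without LL1, LL3, SL2 or SL3 (up to 0.1045). Another locus of the list, AT5G38940, was lower by 0.55 ± 0.14 at values of 1.66 to 2.83, among the dimmest of the genes named here (adjusted p = 0.02923), lost without LL1, LL2 or SL2 (up to 0.25). Of the 24 germin-like genes these 3 were called, 8.33% higher and 4.17% lower, against 1.2% and 1.3% of all probe sets. Without SL2 none of the 24 was called. Some genes of this family are near-identical copies, and how probes divide between AT5G39110 and such copies is not known here.

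Calls in the wall, endosperm and seed coat lists were few in number, but their shares lay above those of all probe sets. Of the wall loosening genes 8.82% were called higher, and of the mucilage genes 7.69% higher and 3.85% lower. Of the endosperm genes 5.26% were higher, and 2 of 19 were lower. Over all probe sets 1.2% were higher and 1.3% lower. Of 34 genes of wall loosening and reserve mobilization, EXPA15, the expansin EXPA10 (1.02 ± 0.27, adjusted p = 0.03589) and the endo-β-mannanase MAN7 (0.75 ± 0.19, adjusted p = 0.02923) were higher. Of 19 endosperm genes, MAN7 was higher and CYP707A2 and the cell wall invertase CWINV2 (-1.02 ± 0.27, adjusted p = 0.03121) were lower. EXPA10, MAN7 and CWINV2 were lost without any array but SL3 (up to 0.1644, 0.1572 and 0.1331). With the pollen index as covariate CWINV2 differed by -0.46 (adjusted p = 0.4117), EXPA10 by 0.73 (adjusted p = 0.2608) and MAN7 by 0.64 (adjusted p = 0.162). Of 26 seed coat mucilage genes, the glucomannan synthase CSLA02 (0.55 ± 0.11, adjusted p = 0.005522) and SOS5 (0.65 ± 0.18, adjusted p = 0.04982) were higher and the cellulose synthase CESA2 (-0.36 ± 0.10, adjusted p = 0.04983) was lower. CSLA02 was lost without LL1 alone (0.07921), and SOS5 and CESA2 without any 1 of the 6 arrays (up to 0.2134 and 0.1739). The touch and calcium list, 23 genes, had MSL9 as its 1 called member (4.35% higher).

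Of storage protein and oil body genes 3.85% were called higher, and of late embryogenesis genes 4.17% lower. The heat shock list had 3.57% higher and 7.14% lower. Over all probe sets the shares were 1.2% higher and 1.3% lower. The medians of these lists were -0.04, -0.09 and 0.02 on the log2 scale, against 0.02 over all probe sets. Of 26 genes of storage proteins and oil bodies, the oleate desaturase FAD2 was higher, with 7.16, 6.80 and 7.43 in LL seed, against 5.95, 6.64 and 6.40 in SL seed (0.80 ± 0.17, adjusted p = 0.008387), lost without LL1 or SL1 (up to 0.06666). Of 24 late embryogenesis genes, the dehydrin ERD10 was lower, with 4.13, 4.19 and 4.13 in LL seed, against 5.35, 4.53 and 5.86 in SL seed (-1.10 ± 0.29, adjusted p = 0.03064). Its call was lost without any 1 of the other 5 arrays, with an adjusted p of up to 0.1743, and it was kept without SL2 (0.01087). In the other growth conditions of NIL DOG6, ERD10 averaged 4.54 at 15 °C, 4.37 under low nitrate and 4.26 at 20 °C. Of 28 heat shock genes, HSFA9, the seed heat shock factor (-0.39 ± 0.09, adjusted p = 0.017), and HSF3 (-0.35 ± 0.08, adjusted p = 0.02031) were lower and the chaperone HSC70-1 (0.33 ± 0.09, adjusted p = 0.03956) was higher. HSFA9 was lost without LL1, SL1 or SL2 (up to 0.1764), HSF3 without LL1, SL2 or SL3 (up to 0.1521), and HSC70-1 without LL1, LL2, SL2 or SL3 (up to 0.2344).

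In the sugar lists, 6.67% of the starvation and low energy genes and 2.17% of the transport and starch genes were called lower. The share over all probe sets was 1.3%. Of 30 genes of sugar starvation and low energy, the β-galactosidase BGAL4 (-0.86 ± 0.23, adjusted p = 0.03761) and the trehalose phosphate synthase-like TPS11 (-0.35 ± 0.09, adjusted p = 0.03208) were lower. Of 46 genes of sugar transport and starch, CWINV2 was the 1 called. BGAL4 was lost without any array but SL1 (up to 0.1815) and TPS11 without LL1, SL1 or SL2 (up to 0.2549). Neither list thus had a call without SL2 (7 and 5 members at an unadjusted p under 0.05). With the pollen index as covariate BGAL4 differed by -0.36 (adjusted p = 0.4658) and TPS11 by -0.34 (adjusted p = 0.1203).

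**Figure D3:**
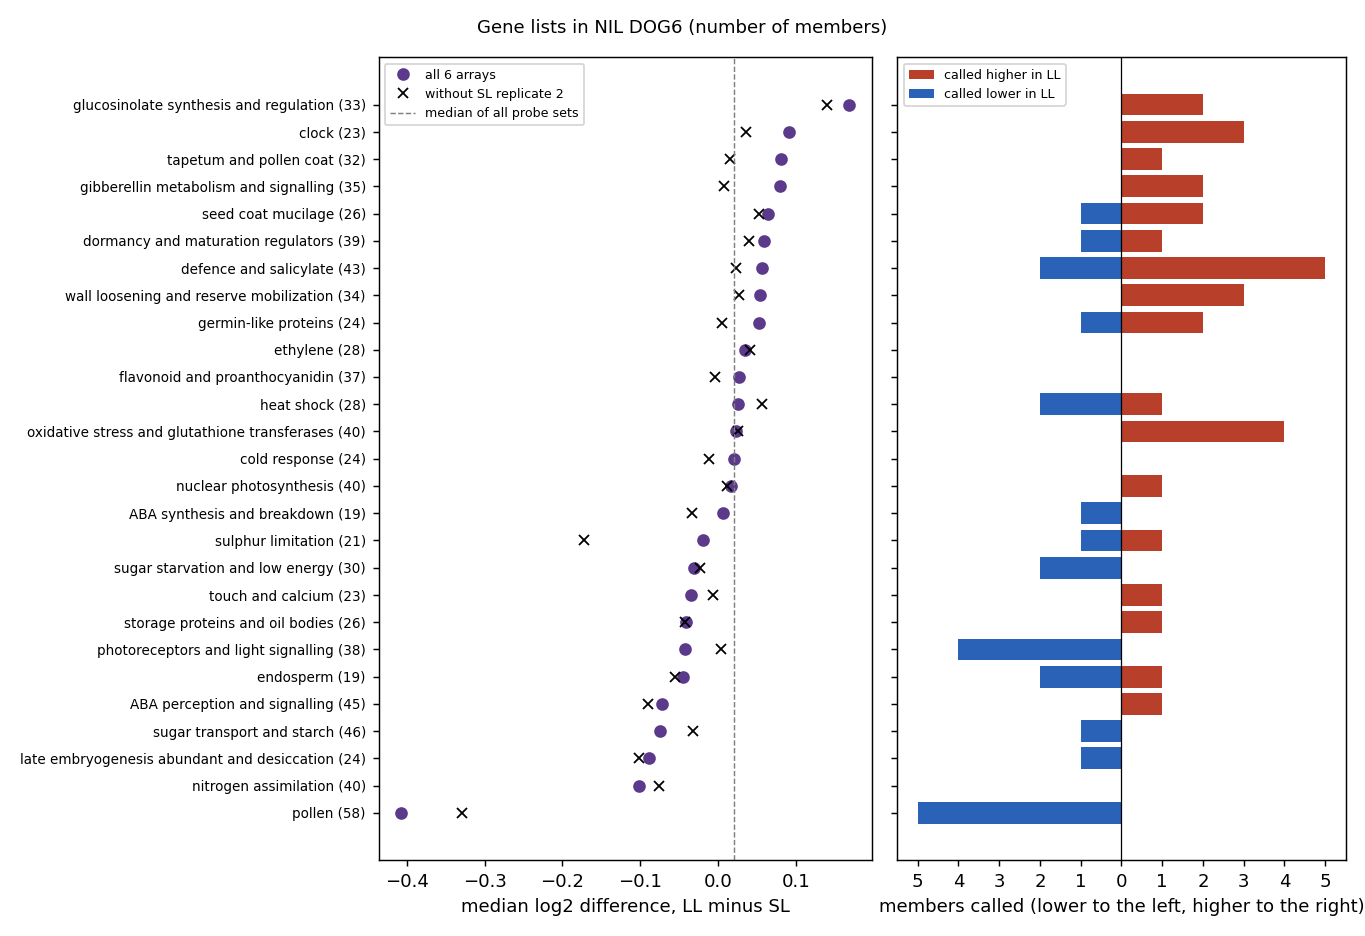
Median log2 difference (LL minus SL) of each of the 27 gene lists in NIL DOG6 with all 6 arrays (circles) and without SL replicate 2 (crosses), and the number of members called lower (to the left) or higher (to the right). The dashed line is the median of all probe sets, 0.02. The pollen list lies lowest, at -0.41 with all arrays and -0.33 without SL replicate 2.

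Over all lists, 53 of 851 distinct loci were called, 31 higher and 22 lower, against 1.2% higher and 1.3% lower of all probe sets. With SL replicate 2 left out 16 were called, 10 higher and 6 lower, against 0.345% and 0.338% of all probe sets. Without LL replicate 1 the count was 10. The tapetum and pollen coat list had 1 call, AT4G35420, which was higher by 0.51 ± 0.14 (adjusted p = 0.03294; lost without any array but LL3, up to 0.1453). The medians of the lists other than pollen lay between -0.10 and 0.17 on the log2 scale, against 0.02 over all probe sets.

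Pollen genes were the group that stood lowest in LL seed. Of the 58 markers, 5 were called lower and none higher by limma, against 1.3% and 1.2% of all probe sets. At an unadjusted p under 0.05 there were 27 lower and 0 higher, against 2363 and 2132 of all 27827 probe sets. Of all 58, 42 had a negative difference, and the median was -0.41 on the log2 scale. For 27 of the 58, every LL array lay below every SL array (9.36% of all probe sets), and for 2 every LL array lay above (9.94%). The called markers were the arabinogalactan genes AGP23, AGP6, AGP24 and AGP40 and the pectin methylesterase PPME1, all known from pollen and pollen tubes. AGP23 stood at 5.97, 7.25 and 5.33 in LL seed, against 8.83, 9.21 and 8.09 in SL seed (-2.53 ± 0.60, adjusted p = 0.01948). AGP6 stood at 4.75, 4.81 and 3.53 in LL seed, against 6.97, 6.98 and 5.97 in SL seed (-2.28 ± 0.56, adjusted p = 0.02252). For both, all SL arrays were high, replicate 3 less so than the other two. AGP24, AGP40 and PPME1 differed by -2.19 ± 0.49, -2.16 ± 0.48 and -0.83 ± 0.23. None of the 5 was called without SL2, with adjusted p-values of 0.09374 to 0.1815, or without LL1, with 0.06006 to 0.3141. AGP23 and AGP6 were lost also without LL3 or SL1, AGP40 without LL3, and PPME1 without LL2, SL1 or SL3. The differences without SL replicate 2 were still -1.94 for AGP24, -2.11 for AGP6 and -2.28 for AGP23.

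The index of all 58 markers differed by -0.633 between LL and SL seed (exact two-sided permutation test, p = 0.1, the smallest that 3 against 3 arrays can give). Without SL replicate 2 it differed by -0.528 (exact p = 0.1, again the smallest possible). The index was set up after an earlier look at these data had found high pollen gene signal on an SL array. Both p-values are therefore a description. Markers above the median of all values numbered 20, 18 and 16 of 58 on the LL arrays, against 27, 28 and 23 on the SL arrays. The brightest marker reached 7.499 to 7.801 on the LL arrays and 8.338 to 9.213 on the SL arrays. In these bulk samples, less pollen material and less RNA of these genes per cell cannot be told apart. In NIL DOG6 seed grown in the other experiment the index was 0.015, -0.182 and -0.226 at 15 °C, -0.013, 0.386 and 0.085 under low nitrate, and 0.175, 0.020 and -0.130 at 20 °C. The SL arrays 1 and 2 were thus the highest of the 15 arrays of this line.

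The largest falls that were called with all arrays but not without SL replicate 2 lay in the same range. AT5G26717 stood at 4.1, 4.69 and 4.1 in LL seed, against 7.05, 7.90 and 6.39 in SL seed, the largest fall of the comparison at 7.04-fold (-2.82 ± 0.57, adjusted p = 0.005575). Without SL replicate 2 it was -2.42 with an adjusted p of 0.05906, and without LL1 the adjusted p was 0.05066. RALFL8, a gene of the RALF family of small secreted peptides, stood at 5.6, 5.58 and 4.29 in LL seed, against 7.88, 7.68 and 7.0 in SL seed (-2.36 ± 0.51, adjusted p = 0.009875), lost without LL3 or SL2 (up to 0.05533). AT3G28750, AT3G07820, AT5G07410, AT5G07430 and AT5G15140 fell by 2.57, 2.5, 2.37, 2.37 and 2.31, and lost their calls without SL2 with adjusted p-values of 0.06986 to 0.1622. All but AT5G15140 were lost without LL1 too (up to 0.1764), and AT3G28750, AT3G07820 and AT5G07430 also without LL3 or SL1. In the fit with the pollen index as a covariate, the differences of the 8 largest such falls were -1.19 to -0.74. AT5G26717 (-1.19, adjusted p = 0.04746) and AT5G15140 (-0.84, adjusted p = 0.03139) were called by limma in that fit. The others were not (adjusted p = 0.08675 to 0.4604). These 8 were chosen because they lost their call without the array of highest pollen index, and AGP23 is itself 1 of the 58 markers in the index, so these values are a description. The part of pollen in the individual falls was not tested.

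The same contrast in the other lines showed how far these changes were shared. In NIL DOG1, 161 probe sets were called between LL and SL seed (0.579%), and in NIL DOG3 4 were called (0.0144%), with 2979 and 2112 at an unadjusted p under 0.05. Of the 695 probe sets called in NIL DOG6, 620 (89.2%) had the same sign in NIL DOG1 and 597 (85.9%) in NIL DOG3, against 57.2% and 62.1% of all probe sets. Some same-numbered arrays of different lines deviated together. Among SL arrays the correlations were -0.0541 to 0.124 for replicate 1, 0.179 to 0.398 for replicate 2 and 0.0973 to 0.2 for replicate 3. Among LL arrays they were 0.0349 to 0.213, 0.00535 to 0.0826 and 0.0619 to 0.271. Their part in the shares of equal sign was not tested. Of the 695, 76 were also called in NIL DOG1 and 3 in NIL DOG3. Among the 182 called with and without SL replicate 2, 169 had the same sign in NIL DOG1 and 165 in NIL DOG3. Of the 74 core probe sets, 71 had the same sign in NIL DOG1 and 64 in NIL DOG3. The 334 higher probe sets had a median log2 difference of 0.68 in NIL DOG6, 0.33 in NIL DOG1 and 0.16 in NIL DOG3; the 361 lower had -0.53, -0.25 and -0.18. As the probe sets were chosen on NIL DOG6, the larger value there is a description.

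LSU1 and AT1G12030 fell in all 3 lines. LSU1 differed by -1.84 in NIL DOG6, -1.55 in NIL DOG1 (adjusted p = 0.03482) and -1.95 in NIL DOG3 (adjusted p = 0.03957). AT1G12030 differed by -1.54 in NIL DOG6, -1.72 in NIL DOG1 (adjusted p = 0.002382) and -1.92 in NIL DOG3 (adjusted p = 0.003045). These stand among the 3 probe sets called in both NIL DOG6 and NIL DOG3.

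ACR6, AMT1;1, ELIP1, SPA4, RGL2, PDF1.4 and MSL9 passed the test in NIL DOG6 and NIL DOG1 but not in NIL DOG3. ELIP1 differed by -1.14 in NIL DOG6, -1.34 in NIL DOG1 (adjusted p = 0.001242) and -0.44 in NIL DOG3 (adjusted p = 0.6404). MSL9 differed by 1.69, 0.77 (adjusted p = 0.01356) and 0.82 (adjusted p = 0.0634), and all 3 LL arrays lay above all 3 SL arrays in every line. PDF1.4 differed by 1.38, 1.3 (adjusted p = 0.01011) and -0.04 (adjusted p = 0.9815). For other genes NIL DOG6 had the larger difference: DWF1 differed by 1.59 in NIL DOG6, 0.10 in NIL DOG1 and 0.40 in NIL DOG3, AGP31 by 1.68, 0.24 and 0.32, and EXPA15 by 1.51, 0.32 and 0.46. None of these differences between lines passed the test of the difference itself.

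**Figure D4:**
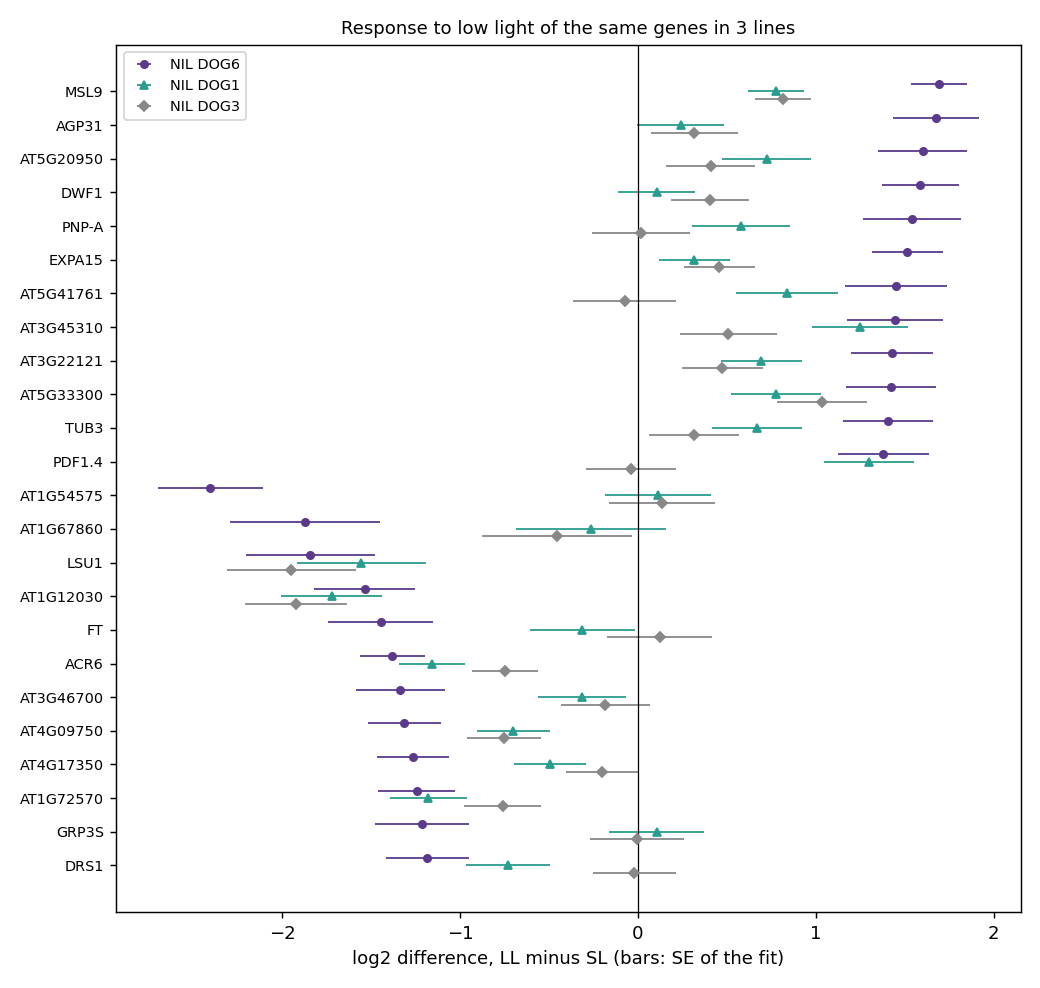
Log2 difference (LL minus SL, horizontal axis) in NIL DOG6, NIL DOG1 and NIL DOG3 of the 12 largest rises and 12 largest falls called with and without SL replicate 2, with bars of 1 standard error of the fit. LSU1 and AT1G12030 lie below -1.5 in all 3 lines, while AT1G54575 is at -2.40 in NIL DOG6 and at 0.11 and 0.14 in the other lines.

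The test of the difference, the LL response of NIL DOG6 minus the mean response of the other lines, called 1 probe set, AT1G54575 (0.00359%). That call was lost when the 18 LL and SL arrays alone were fitted (adjusted p = 0.4276). At an unadjusted p under 0.05 there were 1630. AT1G54575 differed by -2.40 in NIL DOG6, 0.11 in NIL DOG1 and 0.14 in NIL DOG3, and its response in NIL DOG6 was lower by 2.53 ± 0.36 on the log2 scale than the mean of the others (adjusted p = 0.001688). The level that set NIL DOG6 apart was that of its SL seed, at 6.61, 7.2 and 7.38. Its means elsewhere in this line were 4.66 in LL seed, 4.98 at 15 °C, 4.97 under low nitrate and 4.77 at 20 °C. In NIL DOG1 it averaged 5.25 in LL and 5.14 in SL seed, and in NIL DOG3 5.67 and 5.53.

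The next 7 smallest p-values of that test belonged to genes that did not pass it (adjusted p = 0.1483 to 0.1754): DWF1, AGP31 and MSL9, given above, and 4 others. NGA1, a transcription factor of leaf and flower shape, stood at 4.81, 4.75 and 4.54 in LL seed, against 5.52, 5.39 and 5.29 in SL seed (-0.70 ± 0.09, adjusted p = 6.312e-05), with -0.07 in NIL DOG1 and -0.18 in NIL DOG3. AT1G72860 differed by 0.74 in NIL DOG6, -0.17 in NIL DOG1 and -0.04 in NIL DOG3. NTMC2T6.2 differed by -0.39, -0.03 and 0.06, and AT3G26561, at values of 1.77 to 2.41, by -0.40, 0.09 and 0.30. NGA1, AT1G72860 and NTMC2T6.2 were called between LL and SL seed of NIL DOG6 whichever array was left out, and AT3G26561 was lost without LL1, LL3, SL2 or SL3 (up to 0.1185).

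Set beside the response to temperature in the same line, measured on other arrays, the probe sets called in both comparisons mostly ran the other way, while most of the 695 were not called there. Between 15 °C and 20 °C, 1593 probe sets were higher at 15 °C (5.72%) and 1662 lower (5.97%). Of the 695 called between LL and SL, 214 were called there too, 30.8% of the light calls and 6.57% of the temperature calls. Of these 214, 189 were opposite in direction and 25 the same: 95 were higher under low light and lower at 15 °C, and 94 were lower under low light and higher at 15 °C. Of the 182 called without SL replicate 2 as well, 68 were called, 63 of them opposite and 5 the same. This comparison was added after the data had been seen, and no test of the overlap was made. The share of all probe sets with opposite signs in the 2 comparisons is not given here. How far the reversal is particular to the called probe sets was thus not tested.

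Single genes show the pattern. ACR6 was lower in LL than in SL seed by 1.38, but higher at 15 °C than at 20 °C by 1.04 (7.08, 7.26 and 6.88 at 15 °C, against 6.12, 5.78 and 6.21 at 20 °C; adjusted p = 0.0001529). LSU1 was lower in LL seed by 1.84 and higher at 15 °C by 1.67 (adjusted p = 0.001669), with means of 7.75 at 15 °C, 7.33 under low nitrate and 6.08 at 20 °C. AMT1;1 differed by -1.05 between LL and SL seed and was higher at 15 °C by 0.92 (adjusted p = 3.246e-05). TUB3 was higher in LL seed by 1.4 and differed by -1.32 between 15 °C and 20 °C (adjusted p = 0.0004321), and AT5G39110 was higher in LL seed by 2.6 and differed by -2.41 (adjusted p = 0.003143). ELIP1 (0.81, adjusted p = 0.00771) and DI21 (-0.83, adjusted p = 1.788e-05) followed the same reversal. The DOG1 gene was higher at 15 °C than at 20 °C by 2.41 (adjusted p = 2.181e-11), with means of 8.49 at 15 °C and 6.08 at 20 °C, while its LL and SL means were 6.45 and 6.24. CYP707A2 was lower under low light (-0.59) and also lower at 15 °C (-0.65, adjusted p = 0.0029). DWF1, AGP31 and EXPA15 did not pass between 15 °C and 20 °C (adjusted p = 0.4579 to 0.977).

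**Figure D5:**
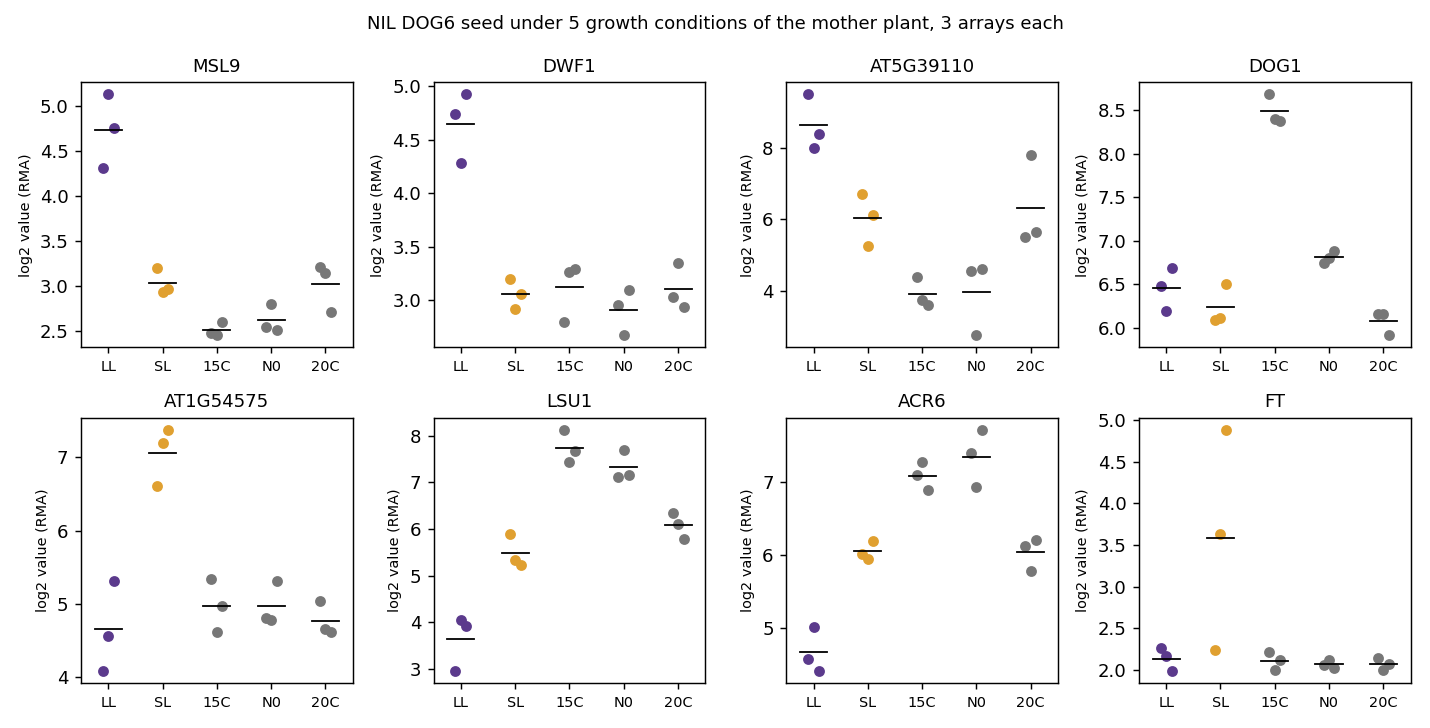
Log2 RMA values of 8 genes on the 15 arrays of NIL DOG6, 3 per growth condition of the mother plant (horizontal axis: LL, SL, 15C, N0, 20C), with the mean of each group as a line. MSL9 and DWF1 are high in LL seed alone of the 5 groups, AT1G54575 and FT are high in SL seed, and the DOG1 gene is highest at 15 °C. Vertical scales differ between panels.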

How the data were processed

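Log2 expression values were deposited by the authors as one table of 27827 probe sets on 44 arrays, and per the submitters' processing notes they were made with RMA, which corrects background, normalizes quantiles and summarizes probes. The RMA version was not given in the sources used here, nor was a build or probe annotation. No counts or detection calls were used, so precision is limited by how many arrays there are. The standard error of the LL minus SL difference had a median of 0.16 (log2), and 0.18 without SL replicate 2. Per the labels, RNA was labelled with the Nugen protocol. The extraction text also describes polysome RNA; the labels name total RNA for every array.

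Groups came from the titles. limma 3.58.1 in R 4.3.3 fitted the means of 15 groups over all 44 arrays (29 residual degrees of freedom), moderated the variances, and adjusted two-sided p-values by Benjamini-Hochberg over all probe sets, with calls under 0.05. No filter and no replicate block entered. The fit was tested on simulated data. Locus identifiers in the table were matched to TAIR10.1 gene names: 27241 loci matched, 586 did not, and 10229 carry a unique symbol. Gene lists hold 976 names, of which 65 matched no probe set and 7 were ambiguous, leaving 851 distinct loci. The members and lists were chosen with earlier results of these data known, so no list was tested as a set. 182 probe sets hold values identical to another on every array; 6 of them were called.

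Named genes were the 12 largest rises and 12 largest falls called with and without SL replicate 2, the 8 largest falls and 4 largest rises called only with it, up to 4 called members per list, the 8 smallest p-values of the difference between lines, the DOG1 gene and NAC060; other genes are marked as chosen later, complete a count (LCR69, WRKY33, EDS16, PPME1), or stand for known roles or copies without having passed the test. Alternatives were fits on the 6 or the 18 LL and SL arrays, each array left out, a filter on dim probe sets, replicate blocks, array weights, renormalization, median centring, a variance trend and the pollen index as covariate; a fit without the 3 SL arrays numbered 2 was added after seeing the data. A search of promoters for motifs was planned and was not run, since no sequences were at hand.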

Additional observations from a re-analysis of the deposited data

Results flagged for a closer look

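AT1G54575 was the one probe set whose response to low light differed between lines by a test of the difference. In the limma fit, the LL minus SL difference of NIL DOG6 minus the mean of those of NIL DOG1 and NIL DOG3 was -2.53 ± 0.36 on the log2 scale (adjusted p = 0.001688). Against NIL DOG1 alone the difference was -2.52 ± 0.42 (adjusted p = 0.0276), and against NIL DOG3 alone it was -2.54 ± 0.42 (adjusted p = 0.02355). Against the mean of both lines it passed whichever of the 6 NIL DOG6 arrays was left out, with -2.86 to -2.24 and adjusted p-values of 0.0002098 to 0.02633. On the 18 LL and SL arrays alone it did not pass (adjusted p = 0.4276). Against NIL DOG1 alone it was lost without LL replicate 1, SL replicate 2 or SL replicate 3 (adjusted p = 0.1426, 0.1576 and 0.1527). Against NIL DOG3 alone it was lost without LL replicate 1, LL replicate 2, SL replicate 2 or SL replicate 3 (adjusted p = 0.1994, 0.1219, 0.1361 and 0.09763). With the pollen index as a covariate the 3 differences were -2.40, -2.41 and -2.40, with adjusted p-values of 0.0005943 to 0.01008.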

How the results depend on the processing

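LL minus SL in NIL DOG6 gave 695 calls. It gave 0 on the 6 arrays alone by limma, where 3480 probe sets had an unadjusted p under 0.05, 170 on the 18 LL and SL arrays (113 higher, 57 lower), 1077 with the brighter probe sets alone tested, 278 with the pollen index as covariate, and 270 without the 3 SL arrays numbered 2. Leaving out 1 array gave 100 to 679, the lowest without LL replicate 1 and 190 without SL replicate 2. Array weights (514), renormalization (732), median centring (611) and a variance trend (997) stayed within 1.5 times. The gene lists held 53 calls, against 0 on the 6 arrays (169 unadjusted), 16 on the 18 arrays, 19 with the pollen covariate, 25 without the 3 SL arrays numbered 2, and 10 to 49 with 1 array left out. The test of NIL DOG6 against the mean of the other lines called 1 probe set, against 0 on the 18 arrays (1401 unadjusted), 3 with the brighter probe sets, 2 with a variance trend, 2 without the 3 SL arrays numbered 2 and 1 to 14 with 1 array left out (14 without SL replicate 1, 2 without LL replicate 1). Against NIL DOG1 it called 1, with 0 on the 18 arrays (1601 unadjusted), 0 with array weights (1569 unadjusted) and 0 to 6 with 1 array left out. Against NIL DOG3 it called 1, with 0 on the 18 arrays (1406 unadjusted) and 0 to 9 with 1 array left out; AT1G54575 is described above. The pollen index difference ranged from -0.747 to -0.528 with 1 array left out. Same-numbered LL and SL arrays deviated together hardly at all (correlations 0.00461, 0.0307 and 0.0479), so the numbers were not taken as pairs. Between lines, same-numbered SL arrays correlated at up to 0.398 (replicate 2) and LL arrays at up to 0.271 (replicate 3). With the replicate block, as a fixed term or at random within a condition, the calls were 773 and 698, those of the lists 61 and 55, and each test between lines kept 1. Of 81 named results under 17 alternatives none changed sign while called; calls were lost for 79 on the 6 arrays, 49 without LL replicate 1, 45 on the 18 arrays, 42 without SL replicate 2, 38 with the pollen covariate, and 31 or fewer under each other alternative. Except where the text gives a value, the cause was not tested.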
